A study of Mus musculus with 474 samples.

Results

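Divisions of mouse haematopoietic stem cells (HSCs) were compared by how much Vwf RNA their daughter cells held. The cells were single HSC daughters from the bone marrow of wild type, male C57BL/6JRj mice aged 12 to 19 weeks, whose first division in culture had been followed by time-lapse imaging before each daughter was picked with a micromanipulator and read by Smart-seq2, a plate method that sequences the RNA of one cell per well. All listed cells carry the same group in the labels, with no genotype, treatment or time arm, so the comparison is within one kind of cell. The pair of daughters of a division, called sisters, differ by a label that says which received more lysosomes (the high-lysosome sister) and which fewer (the low-lysosome sister). Of the cells, 85.7% formed divisions with 1 sister of each label, in 9 culture experiments with 11 to 38 divisions each. Within each experiment the divisions were ranked by the mean of both sisters' log2(Vwf CPM + 1), where CPM is a cell's count scaled to a fixed total of counts on genes (1000000). The upper tercile, 64 divisions, is called Vwf-high, and the lower tercile, also 64 divisions, Vwf-low. Together they hold 63.1% of the divisions and 54.01% of all listed cells. The 75 divisions between them are given as levels only. The labels do not say how many mice stand behind an experiment, so the spread between experiments may be partly technical.

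Von Willebrand factor (VWF) is a large glycoprotein that is wound into multimers, stored in the Weibel-Palade bodies of endothelial cells and the alpha granules of platelets, and released to tether platelets to injured vessel walls through glycoprotein Ib and integrin αIIbβ3. Among HSCs, those that express Vwf are known to be primed towards platelets and to sit high in the HSC hierarchy, and Vwf is among the genes that rise as HSCs age.

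Vwf (ENSMUSG00000001930, GRCm38 chr6:125546774-125686679, plus strand) had a count in 67.3% of all listed cells. Every cell of Vwf-high divisions had a Vwf count, with a mean of 204.9 CPM, a median of 140.7 CPM, a lowest cell of 8.17 CPM and a highest of 955 CPM. In the middle divisions 74% of cells had a count, and the mean was 27.5 CPM. In Vwf-low divisions 28 cells (21.9%) had a count and the mean was 2.56 CPM. Of the 64 Vwf-low divisions, 39 had no Vwf count in either sister, 22 had one in a single sister and 3 in both. By experiment, Vwf-high divisions lay between 77.7 (experiment 72) and 341.4 CPM (experiment 77) with a median of 195.5 CPM, and Vwf-low divisions between 0 (experiment 75) and 7.85 CPM (experiment 73) with a median of 2.88 CPM. Both ranges follow from the ranking and are given without a test. Just inside and outside the upper edge, the lowest Vwf-high division and the highest middle division stood at 6.29 and 6.23 on the log2(CPM + 1) scale in experiment 60 and at 5.31 and 5.29 in experiment 76. In experiment 69, with 12 divisions, they stood farther apart at 5.73 and 4.46. At the lower edge, the highest Vwf-low and lowest middle division stood at 2.60 and 2.98 in experiment 60 and at 0 and 1.07 in experiment 75, where all 11 Vwf-low divisions were at 0.

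**Figure D1:**
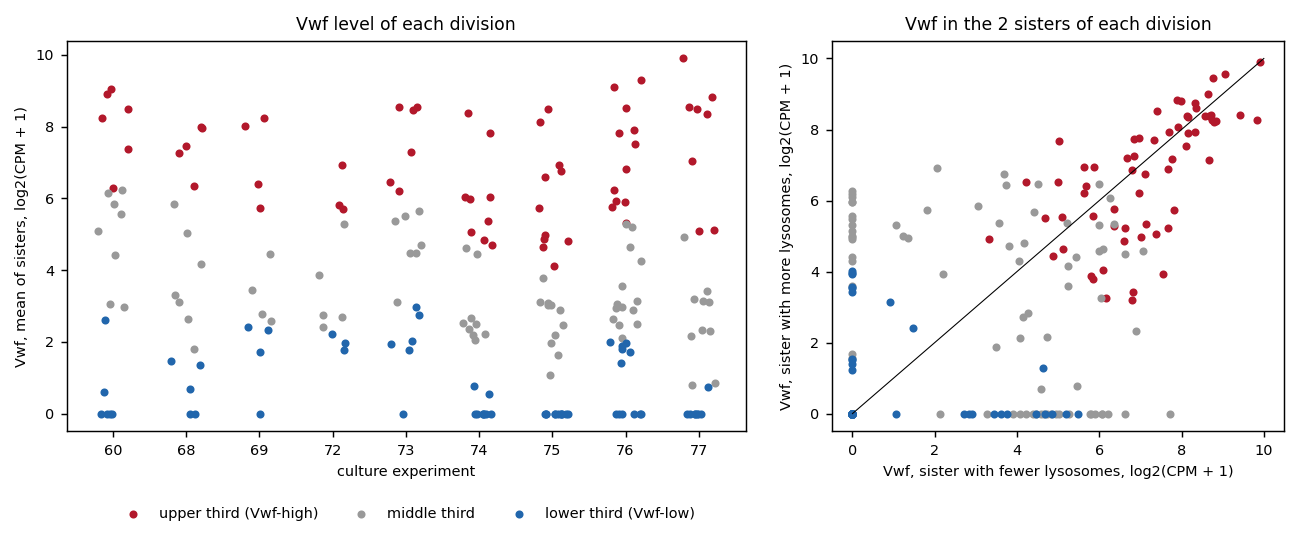
Left, Vwf level of each division (mean of both sisters, log2(CPM + 1)) by culture experiment, coloured by tercile within the experiment. Right, Vwf in the high-lysosome sister against the low-lysosome sister of each division with the line of equality; 39 of 64 Vwf-high divisions lie within 1 of the line, and divisions on an axis have a count in a single sister or in none.

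Vwf-high divisions were chosen by the mean of both sisters, so the closeness of their sisters is a description. The median absolute difference was 0.74 on the log2(CPM + 1) scale, 39 of 64 divisions had sisters within 1, and the widest pair differed by 3.63. Across all divisions, centred on the experiment, the level of one sister went with that of the other at Pearson r = 0.58 and a Spearman coefficient of 0.57, a description of divisions that share cultures and plates. The difference between sisters was not used by the ranking. Vwf averaged 3.60 in high-lysosome and 3.97 in low-lysosome sisters on the log2(CPM + 1) scale, a difference of -0.37 ± 0.34 (SD over 9 experiments), and it was higher in high-lysosome sisters in 2 of 9 experiments, 60 and 76. This difference passed an exact two-sided sign-flip permutation test over experiments (p = 0.0234, n = 9; the smallest p this design allows is 0.0039). As mean CPM it did not pass the same exact permutation test (p = 0.105, n = 9). The means were then 70.1 CPM in high-lysosome and 80.3 CPM in low-lysosome sisters, a difference of -10.2 ± 15.96 CPM (SD), with high-lysosome sisters higher in 3 of 9 experiments, 68, 69 and 76. On the log2(CPM + 1) scale the difference was below 0 in 4 of the 5 experiments of sequencing run 4 and in 3 of the 4 of run 5. Within the Vwf-high divisions the high-lysosome sister had more Vwf in 29 of 64.

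No difference in depth or RNA quality was detected between the groups. A library held 846198 counts on genes in the median, the shallowest 76735 and the deepest 2444858. Vwf-high minus Vwf-low divisions differed by 0.04 ± 0.28 in log2 total count, by 79.9 detected genes (6 of 9 experiments higher) and by 0.006 ± 0.245 percentage points of mitochondrially encoded counts (SD, n = 9 experiments). With the gene counts per spike-in count, 4 measures were tested, and none passed the two-sided exact sign-flip permutation test (adjusted p from 0.875 to 0.934). HSC markers were found in both groups: 7 of 8 had counts, with summed levels per experiment of 2603 to 5223 CPM in Vwf-high and 1593 to 3730 CPM in Vwf-low divisions, and Hoxb5 had no count. A score of G2/M genes (mean log2(CPM + 1)) was lower in Vwf-high divisions in 7 of 9 experiments, by -0.89 ± 1.36 (SD), and as medians over divisions in 6 of 9, by -1.50 ± 2.51. Neither difference was tested, and the SD is the spread of single experiments, not the error of their mean. Gene results with these scores as covariates are given below. Experiment 69, with 4 divisions per tercile, stood apart: its Vwf-low divisions held 662 CPM of 8 summed megakaryocyte markers, while the median experiment held 56.5 CPM and Vwf-high divisions at most 100.6 CPM.

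Runx1, Itgb3, Rhoj and Wwtr1 rose in Vwf-high divisions, and Gm4258, Parvg and Fcer1g fell. On counts summed per experiment and tercile, 7 of 14749 genes (0.0475%) passed with edgeR (quasi-likelihood test, experiment as block, adjusted p under 0.05), 4 higher (0.0271%) and 3 lower (0.0203%) in Vwf-high divisions, and 1461 genes (9.91%) had an unadjusted p under 0.05. The count changed with single experiments. Without experiment 77 no gene passed (1236 had an unadjusted p under 0.05), without 73 or 76 there were 2, without 74 there were 3, without 68 there were 4, without 72 there were 12 and without 69 there were 16. DESeq2 on the same sums called 320 genes (2.17%), among them all 7, and limma on mean log2(CPM + 1) called 45 (0.305%). With one sum per division in place of one per experiment and tercile, 66 of 11698 genes (0.564%) passed, 47 higher (0.402%) and 19 lower (0.162%). There p-values rest on divisions of 9 cultures. In both fits 5 genes passed: Runx1, Itgb3, Rhoj, Gm4258 and Parvg. The other genes called over divisions did not pass on sums. The fit over divisions took genes with a count in at least 20% of paired cells. Of the genes named from it, Lin28b, Map1b, Sfrp1 and Epor were under 20% in Vwf-low cells and Tnf and Flt3 in Vwf-high cells, so these 6 entered the fit through the other divisions. With the Vwf level of all divisions as a covariate in place of terciles, 1.47% of genes passed. Leaving out each experiment in turn gave between 0.145% and 0.992% of genes over divisions, which was 17 genes without experiment 74, 30 without 77, 33 without 76, 43 without 68 and the highest share without 75. Without experiment 69 there were 49.

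Runx1 (ENSMUSG00000022952, chr16:92601466-92826149, minus strand), a transcription factor needed for the birth of HSCs and the maturation of megakaryocytes, rose in Vwf-high divisions. Its lowest, median and highest level over the 9 experiments was 553, 901 and 1564 CPM in Vwf-high and 332.7, 541 and 1026 CPM in Vwf-low divisions. The ranges overlapped, and within an experiment Vwf-high divisions had more Runx1 in 9 of 9. The log2 difference was 0.69 ± 0.08 (SE; edgeR, adjusted p = 0.00664), 0.71 in run 4 and 0.68 in run 5. Every cell of both groups had a Runx1 count, so the difference was not one of detection. Exons of Runx1 overlap Gm26626 on the opposite strand, and Smart-seq2 does not mark the strand.

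Itgb3 (ENSMUSG00000020689, chr11:104608000-104670476) encodes integrin β3, which pairs with αIIb as a platelet receptor for fibrinogen and VWF and with αv elsewhere. It stood at 146.2, 170.2 and 304.6 CPM (lowest, median, highest experiment) in Vwf-high and at 99.1, 110.1 and 179.8 CPM in Vwf-low divisions. Itgb3 was higher in 9 of 9 experiments, with a log2 difference of 0.62 ± 0.09 (edgeR, adjusted p = 0.0381). Rhoj (ENSMUSG00000046768, chr12:75308322-75401456), a small GTPase of the Cdc42 family known from endothelial cells, stood at 42, 49.9 and 81.6 CPM in Vwf-high and at 16.9, 25.4 and 54.2 CPM in Vwf-low divisions. Its log2 difference was 1.28 ± 0.16 (adjusted p = 0.0106), with 8 of 9 experiments higher and experiment 60 at -0.14. Wwtr1 (ENSMUSG00000027803, chr3:57455649-57575910), which encodes the Hippo pathway coactivator TAZ, stood at 33.6, 50.7 and 95.2 CPM against 11.3, 27.8 and 64.2 CPM. It was higher in 9 of 9 experiments, with a log2 difference of 1.15 ± 0.17 (adjusted p = 0.0379). Over divisions Runx1, Itgb3 and Rhoj passed again, and Wwtr1 did not (adjusted p = 0.0872). Myof, the gene of the membrane repair protein myoferlin, was next by p among genes with higher values, at 1.49 ± 0.24, and did not pass (adjusted p = 0.0558).

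The 3 genes that fell were Gm4258, Parvg and Fcer1g. Gm4258 (ENSMUSG00000098243, chr1:137898595-138000384) is annotated as a processed transcript. Its lowest, median and highest experiment was 6.43, 13.3 and 33.3 CPM in Vwf-high and 18.1, 30.4 and 96.4 CPM in Vwf-low divisions, and it was lower in 9 of 9 experiments (log2 difference -1.34 ± 0.16, edgeR, adjusted p = 0.0106). Parvg (ENSMUSG00000022439, chr15:84324026-84342978) encodes γ-parvin, an adaptor between integrins and actin in blood cells, and ranged from 118.1 to 248.4 CPM in Vwf-high and from 181.4 to 346.1 CPM in Vwf-low divisions. It too was lower in 9 of 9 experiments, with a log2 difference of -0.45 ± 0.07 (adjusted p = 0.0472). Fcer1g (ENSMUSG00000058715, chr1:171229572-171234365) encodes the Fc receptor γ chain, which carries the signal of Fc receptors in myeloid cells and of the collagen receptor GPVI in platelets. It stood at 3.51, 16.7 and 33.9 CPM in Vwf-high and at 17.9, 34.8 and 96.6 CPM in Vwf-low divisions, lower in 9 of 9 experiments (-1.58 ± 0.25, adjusted p = 0.0479). Over divisions Gm4258 and Parvg passed again and Fcer1g did not (adjusted p = 0.110). The next genes by p, the zinc transporter gene Slc39a4 (-1.35 ± 0.22) and the transcript 4930519L02Rik (-1.35 ± 0.24), had adjusted p of 0.0558 and 0.0644.

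**Figure D2:**
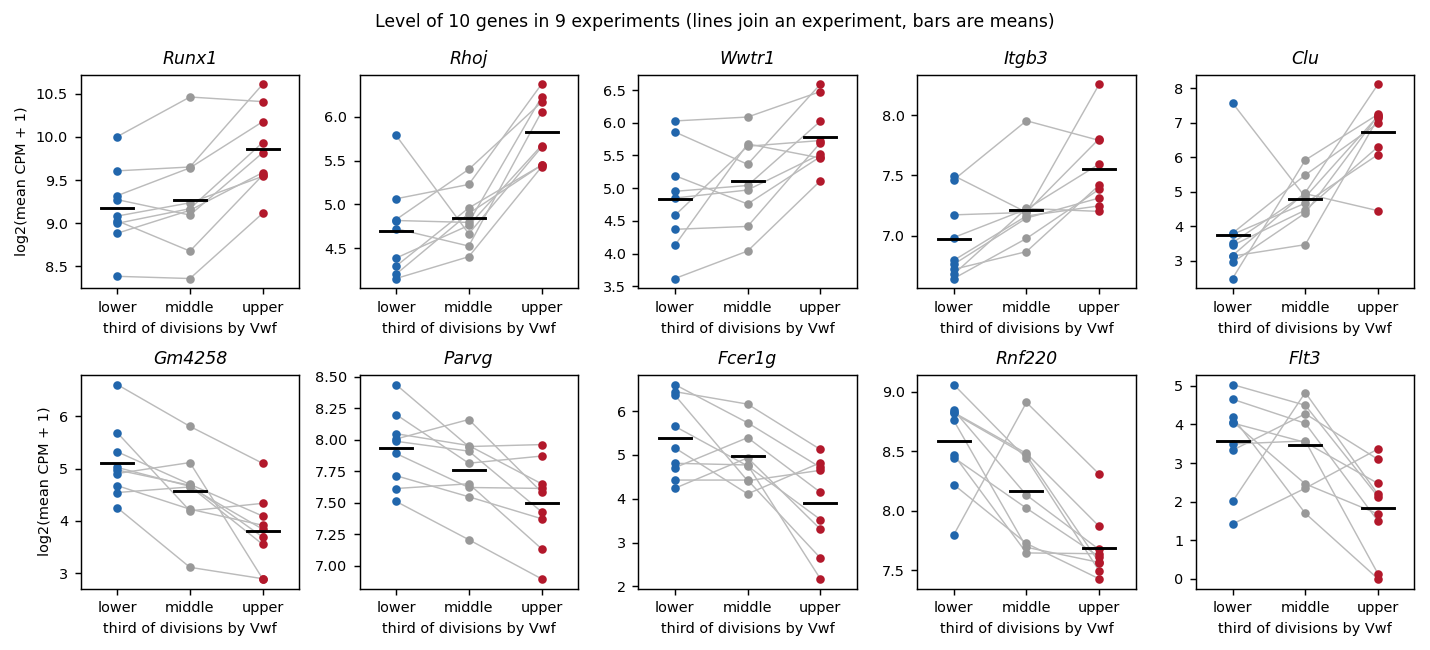
Level of 10 genes, as log2 of the mean CPM + 1 over the divisions of an experiment, in the Vwf-low (lower), middle and Vwf-high (upper) tercile. Points are the 9 experiments, grey lines join an experiment, bars are means; the axes do not start at 0 and differ between genes. Runx1, Itgb3 and Wwtr1 are higher in Vwf-high than in Vwf-low divisions in 9 of 9 experiments, and Gm4258, Parvg and Fcer1g lower in 9 of 9.

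The stretches of DNA before the start sites of Runx1, Rhoj and Wwtr1, the 3 genes called higher on sums with an entry in the RefSeq promoter table (GRCm38.p6), are shown because these genes differed between the groups. They run 5′ to 3′ on the gene's own strand up to 250 bases before the RefSeq start (for Runx1 up to the longer gene model of GENCODE), and the ETS core AGGAAG, searched on both strands, is in capitals.
Runx1, chr16:92826150-92826324, minus strand; Rhoj, chr12:75308063-75308312, plus strand; Wwtr1, chr3:57575911-57576160, minus strand.
Runx1: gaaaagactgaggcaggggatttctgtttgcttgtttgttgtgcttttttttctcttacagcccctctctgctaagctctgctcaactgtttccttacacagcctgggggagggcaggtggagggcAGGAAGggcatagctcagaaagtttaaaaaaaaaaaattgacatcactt
Rhoj: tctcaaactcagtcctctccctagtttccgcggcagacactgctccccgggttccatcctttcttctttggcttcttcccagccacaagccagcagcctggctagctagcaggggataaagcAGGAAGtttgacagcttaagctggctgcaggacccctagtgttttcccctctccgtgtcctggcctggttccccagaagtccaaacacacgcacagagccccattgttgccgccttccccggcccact
Wwtr1: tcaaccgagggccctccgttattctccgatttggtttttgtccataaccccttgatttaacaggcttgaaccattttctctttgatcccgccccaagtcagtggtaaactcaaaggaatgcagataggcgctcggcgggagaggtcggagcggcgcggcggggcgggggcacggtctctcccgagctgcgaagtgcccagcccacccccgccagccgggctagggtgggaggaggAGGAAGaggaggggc
Counted back from the RefSeq start, the core lies at -124 to -119 before Runx1, -128 to -123 before Rhoj and -15 to -10 before Wwtr1. Of the 68 genes called in either fit, 55 had an entry. Within 250 bases before the start, 14 of 36 entries of genes called higher over divisions (38.9%) and 8 of 17 called lower (47.1%) held AGGAAG, beside 29.2% of all 27025 genes with an entry. The RUNX core TGTGGT was in 4 of 36 and 4 of 17, beside 14.2% of all, and the GATA cores AGATAA and TGATAA in 5 of 36 and 1 of 17, beside 16.9%. The 27025 genes were not filtered by detection, whereas the called genes came from the 11698 genes of the fit over divisions. The sets are therefore unlike, and the shares were not tested against each other. These are matches of letters in a fixed window and say nothing on whether a factor binds there.

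The fit over divisions called Clu, Lin28b, Thsd4, Sfrp1, Map1b and Neo1 higher in Vwf-high divisions, each found in fewer Vwf-low than Vwf-high cells. Lin28b, Thsd4, Sfrp1 and Map1b were named after their values were seen, as were other genes of the fit over divisions that the methods list. Clu (ENSMUSG00000022037, chr14:65968483-65981547), the gene of the secreted chaperone clusterin and a gene known to rise in aged HSCs, had the smallest p. It had a count in 85.9% of Vwf-high and 32% of Vwf-low cells, and its lowest, median and highest experiment was 20.8, 138.9 and 275.8 CPM against 4.59, 9.87 and 189.1 CPM. Clu was higher in 8 of 9 experiments, with experiment 68 the exception at 145.5 against 189.1 CPM. Its log2 difference was 3.43 ± 0.46 over divisions (edgeR, adjusted p = 7.17e-08) and 3.24 ± 0.55 on sums (adjusted p = 0.0558). Lin28b, an RNA-binding protein known from fetal HSCs that blocks let-7 miRNAs, was found in 42.2% of Vwf-high and 18.0% of Vwf-low cells. It stood at 3.37 ± 0.65 over divisions (adjusted p = 0.0021), although experiment 60 had 24.9 CPM in Vwf-high and 38.6 CPM in Vwf-low divisions. Thsd4, an ADAMTS-like matrix protein, was higher in 9 of 9 experiments (2.45 ± 0.50, adjusted p = 0.00328), and so was Sfrp1, a secreted inhibitor of Wnt (2.94 ± 0.60, adjusted p = 0.00392). Map1b, a protein of microtubules, rose by 3.03 ± 0.63 (adjusted p = 0.00392) and Neo1, the receptor neogenin, by 1.92 ± 0.46 (adjusted p = 0.0201). On sums Lin28b, Thsd4, Sfrp1, Map1b and Neo1 did not pass (edgeR, adjusted p from 0.0728 to 0.206).

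Dock1, Ptk2b, Actn1, Fgfr1 and Flna rose over divisions. Dock1, which activates Rac, stood at 202.3, 256.2 and 401.9 CPM (lowest, median, highest experiment) in Vwf-high and 76.7, 158.96 and 371.3 CPM in Vwf-low divisions, with 9 of 9 experiments higher. Ptk2b, the adhesion kinase PYK2, stood at 476, 615 and 947 CPM against 313.9, 380.3 and 768 CPM, also higher in 9 of 9. Actn1, which crosslinks actin and binds integrins, and Fgfr1, a growth factor receptor, were higher in 9 of 9 as well. Over divisions their log2 differences were 0.66 ± 0.13 for Dock1, 0.50 ± 0.10 for Ptk2b, 0.68 ± 0.14 for Actn1 and 0.92 ± 0.19 for Fgfr1 (edgeR, adjusted p from 0.0021 to 0.00392). Flna, the actin crosslinker that binds glycoprotein Ib, rose by 0.33 ± 0.08 (adjusted p = 0.0325), a call lost with the cell cycle scores as covariates. On sums Dock1, Ptk2b, Actn1, Fgfr1 and Flna did not pass (edgeR, adjusted p from 0.0558 to 0.289). The integrin adaptor gene Parvg (-0.40, adjusted p = 0.0201) fell over divisions, and so did Itgb5, the gene of integrin β5 (-2.39, adjusted p = 0.0201), with a count in 28.1% of Vwf-high and 48.4% of Vwf-low cells and named after its values were seen. Exons of Fgfr1 overlap Gm16159, and those of Actn1 overlap Gm47766 and Gm47767, on the opposite strand.

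Of the genes that fell over divisions, Rnf220, a ubiquitin ligase, had the smallest p. Rnf220 stood at 171.4, 195.1 and 315.8 CPM in Vwf-high and at 221.5, 432.05 and 532 CPM in Vwf-low divisions, lower in 8 of 9 experiments, and the middle tercile lay between the others in 8 of 9. Its log2 difference was -0.997 ± 0.13 (edgeR over divisions, adjusted p = 7.17e-08). Its exons overlap Gm12827 and Gm12843 on the opposite strand. Arhgap30 fell by 1.37 ± 0.35 on the log2 scale (adjusted p = 0.0325) and was lower in 9 of 9 experiments, and Clnk, an adaptor of immune receptors, fell by 1.86 ± 0.45 (adjusted p = 0.0212). Sox4, a transcription factor of early lymphoid and progenitor cells, fell by 0.76 ± 0.20 (adjusted p = 0.0490), and 2610307P16Rik, a transcript next to Sox4 on chromosome 13, fell by 1.17 ± 0.26 (adjusted p = 0.0121). Sox4 overlaps Gm26735 on the opposite strand. Tnf, the cytokine, fell by 2.54 ± 0.59 (adjusted p = 0.0180), with a count in 15.6% of Vwf-high and 40.6% of Vwf-low cells, and Il1r1, the interleukin-1 receptor, fell by 2.29 ± 0.55 (adjusted p = 0.0217). Tnfrsf1a, the main TNF receptor, rose by 0.46 ± 0.12 (adjusted p = 0.0379), a call lost with the cell cycle scores (adjusted p = 0.111), and Irak3, which damps interleukin-1 signals, rose by 0.65 ± 0.15 (adjusted p = 0.0188). Irak3 shares exon sequence with genes on the opposite strand, Tmbim4 among them. On sums no gene from Rnf220 to Irak3 named here passed (edgeR, adjusted p from 0.0852 to 0.409).

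The proteins that share a granule with VWF were read from a list of 24 genes. Of these, 19 were tested on sums, 0 passed and 15 had a positive log2 difference, with a median of 0.25, while over all genes tested 50.4% were positive and the median was 0.003. Beside 0.564% of all genes, 1 of 18 passed over divisions. That gene was Mmrn1 (ENSMUSG00000054641, chr6:60924976-60989378), multimerin 1, which is stored beside VWF and binds factor V. Mmrn1 stood at 138.7, 179.5 and 261.5 CPM in Vwf-high and at 90.8, 120.2 and 169.2 CPM in Vwf-low divisions, higher in 8 of 9 experiments (0.66 ± 0.14 over divisions, edgeR, adjusted p = 0.00667). Selp, the gene of P-selectin, which lines both kinds of VWF granule, had a count in 54.7% of Vwf-high and 28.1% of Vwf-low cells and a log2 difference of 2.14 ± 0.81 on sums, which did not pass (adjusted p = 0.412). Nbeal2, which platelets need to form alpha granules, was at 0.40 ± 0.12 (adjusted p = 0.316), and the release protein gene Stx11 at 0.49 ± 0.18 (adjusted p = 0.398).

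Receptors for VWF and for platelet adhesion made a list of 20 genes, of which 14 were tested on sums, with a median of 0.23. Itgb3 was called higher and Fcer1g lower, beside 0.0475% of all genes called on sums. Over divisions 2 of 11 passed, beside 0.564% of all genes, Itgb3 and the tetraspanin gene Cd9 (0.44 ± 0.11, adjusted p = 0.0379), which lies 51983 bases from Vwf and overlaps Gm26728 on the opposite strand. Itga2b, whose product pairs with integrin β3 in platelets, had a log2 difference of 0.22 ± 0.45 (adjusted p = 0.922), and its level in experiment 69 was 34.6 CPM in Vwf-high and 469.7 CPM in Vwf-low divisions. Of the wider platelet and megakaryocyte list, 31 of 40 genes were tested, 19 were positive with a median of 0.16, and Runx1 was the one gene called on either fit. Pf4, platelet factor 4, stood at -0.93 ± 0.55 (adjusted p = 0.610). Gp1bb had a count in 0.781% of Vwf-high and 2.34% of Vwf-low cells and was not tested. Its exons overlap Gm49601 and Sept5 on the same strand. The 8 megakaryocyte markers summed to 39.1 to 100.6 CPM in Vwf-high divisions and to 29.5 to 662 CPM in Vwf-low divisions, the top value again in experiment 69.

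Genes of HSC ageing and HSC identity mostly had positive differences, and few of them passed. Of 34 tested genes of a list of HSC ageing, 31 were positive with a median log2 difference of 1.04, 2 were called on sums (Itgb3 and Wwtr1) and 5 of 29 over divisions (Clu, Itgb3, Mmrn1, Neo1 and Ehd3). Over all genes 50.4% were positive, 0.0475% were called on sums and 0.564% over divisions. The list holds genes known to rise with Vwf in old HSCs and was drawn up with results of these data in view. Ehd3, a protein of membrane recycling, stood at 1.67 ± 0.43 over divisions (adjusted p = 0.0379). The stress gene Nupr1 was at 1.65 ± 0.41 on sums (adjusted p = 0.228), and Tm4sf1 at 1.51 ± 0.45 (adjusted p = 0.301). Of 33 tested genes of HSC identity, 0 were called on either fit and 29 were positive on sums, with a median of 0.43. Esam, an adhesion molecule of HSCs and endothelium, was at 0.58 ± 0.13 (adjusted p = 0.165), Ctnnal1, the gene of α-catulin, at 0.99 ± 0.25 (adjusted p = 0.252) and the channel gene Trpc6 at 0.94 ± 0.25 (adjusted p = 0.279). Slamf1, the gene of CD150, had a count in 40.6% of Vwf-high and 20.3% of Vwf-low cells (1.74 ± 1.09, adjusted p = 0.633). Procr, the gene of EPCR, had one in 85.9% and 85.2% (0.69 ± 0.43, adjusted p = 0.634).

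Endothelial genes were read as markers of another cell type that makes VWF. Of 12 tested genes, 12 were positive with a median of 0.71, while 50.4% of all genes were positive. By run, 11 of 12 were positive in run 4 alone and 7 of 9 in run 5 alone. On sums 0 were called, beside 0.0475% of all genes. Tie1 was called over divisions, as 1 of 7, beside 0.564% of all genes. Tie1, a receptor of the angiopoietin pathway that HSCs also express, stood at 152.3, 199.2 and 257.99 CPM in Vwf-high and at 97.9, 132.7 and 203.8 CPM in Vwf-low divisions (0.49 ± 0.11, adjusted p = 0.0142). The 8 endothelial markers summed to 185.8 to 289.02 CPM in Vwf-high and 100.9 to 244.9 CPM in Vwf-low divisions, and Tie1 had a count in 99.2% and 100% of Vwf-high and Vwf-low cells and Emcn in 65.6% and 64.8%. Cdh5 had a count in 4.69% and 0.781% of the cells, Plvap in 8.59% and 1.56% and Stab2 in 2.34% and 0%, and Sox17 had none. The part of other cells in the result was not tested beyond these values.

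Genes of multipotent progenitors mostly had negative differences. Of 17 tested genes of the list for these cells and for activation, 3 were positive, the median was -0.24 and 0 were called on sums. Over all genes 50.4% were positive, 0.0475% were called on sums and 0.564% over divisions. Over divisions 1 of 13 passed, Flt3 (ENSMUSG00000042817, chr5:147330741-147400489), the cytokine receptor that marks multipotent progenitors with lymphoid potential. Flt3 had a count in 18.0% of Vwf-high and 41.4% of Vwf-low cells, and its lowest, median and highest experiment was 0, 3.37 and 9.30 CPM against 1.68, 15.4 and 31.8 CPM. It was lower in 7 of 9 experiments and fell by 2.58 ± 0.68 over divisions (adjusted p = 0.0443; -2.89 ± 1.03 and adjusted p = 0.394 on sums). Cdk6, the kinase that sets how soon an HSC leaves quiescence, was lower in 9 of 9 experiments at -0.67 ± 0.14 and did not pass (adjusted p = 0.135), and Ccnd1 stood at 0.53 ± 0.18 (adjusted p = 0.372). Cd34 stood at -0.06 ± 0.21 (adjusted p = 0.957). Of 8 tested MHC class II genes, 3 were positive with a median of -0.64 and 0 were called.

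Genes of mitosis and of growth mostly had negative differences, and none passed. Of 51 G2/M genes, 1 was positive on sums, the median was -0.58 and 21 had an unadjusted p under 0.05, all with lower values in Vwf-high divisions. Over all genes on sums 50.4% were positive, and 645 of 14749 had an unadjusted p under 0.05 with lower values. Over divisions 1 G2/M gene was positive, the median was -0.41, 0 were called and 1 had an unadjusted p under 0.05. In run 4 alone 22 G2/M genes had an unadjusted p under 0.05, with a median of -0.53. In run 5 alone 1 had, with a median of -0.55. Ect2 stood at -0.90 ± 0.26 (adjusted p = 0.301) and the mitotic kinase gene Plk1 at -0.94 ± 0.45 (adjusted p = 0.513), with a count in 50% of Vwf-high and 64.8% of Vwf-low cells. Of 30 genes of ribosome biogenesis 1 was positive on sums (median -0.24), and of 20 nuclear genes of oxidative phosphorylation 0 were (median -0.17). Over divisions 4 of 30 (median -0.17) and 4 of 20 (median -0.10) were positive. With the cell cycle scores as covariates 8 of 30 (median -0.13) and 7 of 20 (median -0.08) were. With the G1/S and G2/M scores of each division as covariates, 66 genes passed over divisions, 53 of them among the 66 called without them. Runx1, Itgb3, Rhoj, Clu, Rnf220, Mmrn1 and Flt3 were among the 53. With these scores, which hold the G2/M genes themselves, 32 of 51 G2/M genes were positive and their median was 0.11. HSC ageing genes then had 6 of 29 called and a median of 0.82, against 0.95 without the scores. Of the G1/S genes 26 of 41 were positive on sums, with a median of 0.10.

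Lysosomal genes, 44 in number, had a median of 0.19 with 37 positive and 0 called on sums. Over all genes 50.4% were positive and 0.0475% were called on sums. In run 5 alone 33 of the 44 were positive. Over divisions with the cell cycle scores as covariates 30 of 44 were, with a median of 0.09. Ctsb, a lysosomal protease whose exons overlap Fdft1 on the opposite strand, was called over divisions (0.34 ± 0.08, adjusted p = 0.0223), not with the cell cycle scores. Of interferon genes 29 of 33 were positive on sums, with a median of 0.19 and none called. In run 5 alone 21 of 32 were positive, and 19 of 27 over divisions with the cell cycle scores. Among lipid genes Apoe, which carries lipoprotein cholesterol, stood at 187.1, 370.7 and 674 CPM in Vwf-high and at 16.5, 123.1 and 448.2 CPM in Vwf-low divisions, higher in 9 of 9 experiments (1.26 ± 0.32 over divisions, adjusted p = 0.0325). Fads2 and Fads3, neighbouring genes of fatty acid desaturases, rose by 0.44 ± 0.10 (adjusted p = 0.0123) and 0.98 ± 0.26 (adjusted p = 0.0412). Among erythroid genes 2 of 8 were called over divisions, beside 0.564% of all genes. One was the erythropoietin receptor Epor, with a count in 35.2% of Vwf-high and 12.5% of Vwf-low cells (2.86 ± 0.61, adjusted p = 0.00597). The other was the water channel Aqp1 (1.74 ± 0.44, adjusted p = 0.0357). Markers of erythroid cells were otherwise rare: their 6 genes summed to at most 15.5 CPM in any experiment. Mpo, Ctsg, Rag1, Cd3e, Igll1, C1qa and Vcam1 had no count in any cell of either group, which allows up to 2.34% of these divisions with one, counted over divisions because sisters are not independent, for counting error only.

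A ranking by one sister, tested in the other, keeps the ranked and the measured cells apart, although they share a mother and a culture. With divisions ranked by Vwf in the low-lysosome sister, the high-lysosome sisters held 48.1, 180.2 and 337.03 CPM of Vwf (lowest, median, highest experiment) in the upper and 2.52, 10.4 and 28.2 CPM in the lower tercile. The groups did not overlap, and the log2 difference of Vwf was 3.65 ± 0.50 (edgeR, adjusted p = 0.0196). Ranked by the high-lysosome sister, the low-lysosome sisters held 64.7, 172.01 and 397.95 CPM against 4.65, 16.5 and 86.5 CPM, higher in 8 of 9 experiments (3.56 ± 0.51, adjusted p = 0.0845). Of other genes, 2 of 13500 (0.0148%) passed in high-lysosome sisters, Rnf220 (-0.93 ± 0.12, adjusted p = 0.0150) and Thsd4 (2.61 ± 0.40, adjusted p = 0.0450), with an unadjusted p under 0.05 in 1073. In low-lysosome sisters 0 of 13615 passed (0.0%), with 738 at an unadjusted p under 0.05. Runx1 stood at 0.70 ± 0.17 and 0.44 ± 0.17 in the sister that was not ranked, Clu at 3.01 ± 0.50 and 2.73 ± 0.83, Itgb3 at 0.57 ± 0.19 and 0.47 ± 0.17, Rhoj at 0.83 ± 0.23 and 1.86 ± 0.37, and Rnf220 at -0.75 ± 0.22 in low-lysosome sisters.

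Cells outside the divisions with 1 sister of each label are here called cells without a sequenced sister. Whether a sister of each was sequenced was not checked. These cells were outside the ranking and give values from other divisions. In 7 experiments with at least 4 such cells, 62 cells were split by their own Vwf level into 31 upper and 31 lower cells. None of 12247 genes passed (0.0%; 3.06% had an unadjusted p under 0.05). Of the 66 genes called over divisions, 51 (77.3%) had the same sign in these cells, beside 53.3% of 11035 genes tested in both, and 8 had an unadjusted p under 0.05. Among these 8, Clu was at 1.49 ± 0.48, Fgfr1 at 1.18 ± 0.35, Neo1 at 1.52 ± 0.67, Apoe at 0.71 ± 0.26, Ctsb at 0.44 ± 0.18 and Clnk at -1.64 ± 0.66. Cdk6 was at -0.53 ± 0.21 there. Runx1 was at 0.29 ± 0.18 and Itgb3 at 0.50 ± 0.26, and Rnf220 at 0.11 ± 0.24, against -0.997 over divisions. Gm4258, Arhgap30, Tie1, Ptk2b, Cd9, Irak3, Evc2 and Flna were among the other genes that had the opposite sign in these cells.

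**Figure D3:**
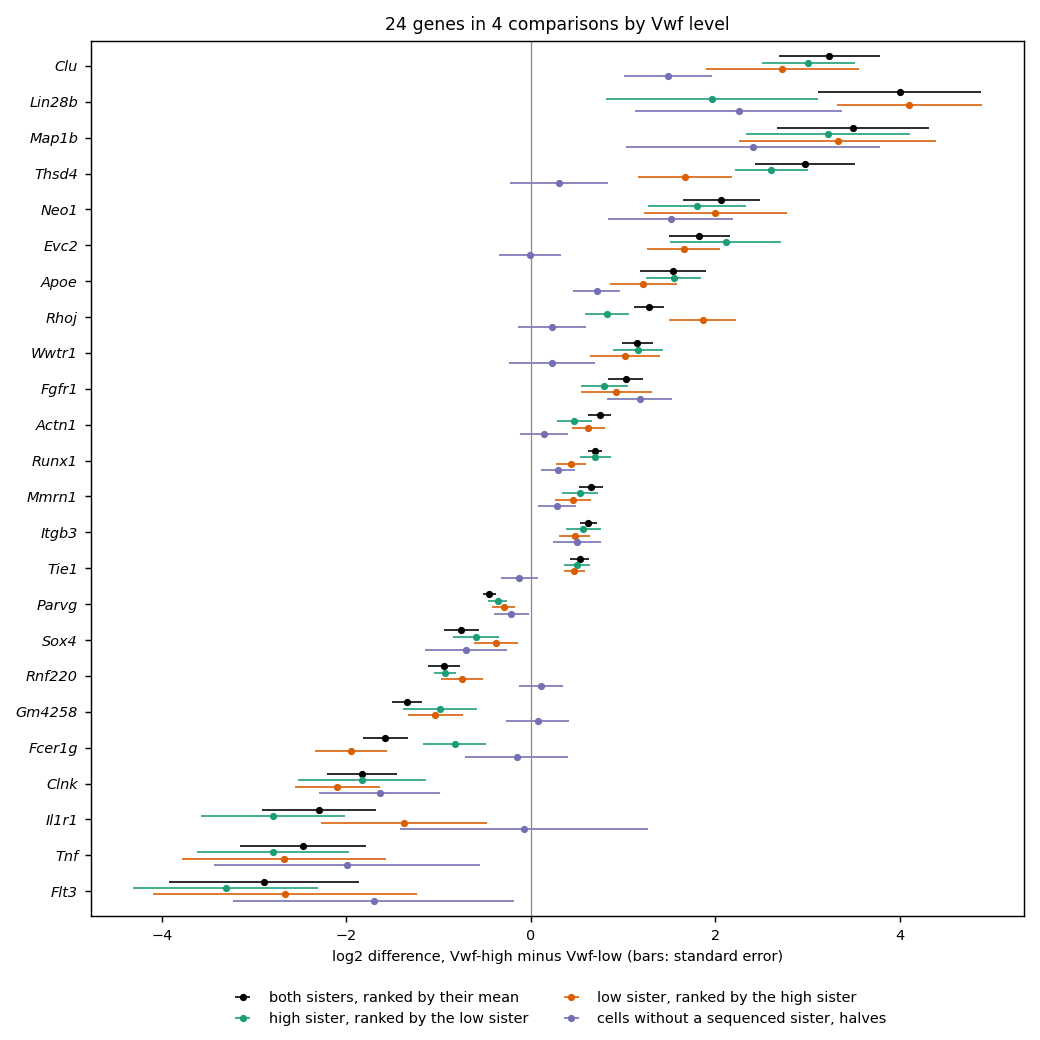
Log2 difference, Vwf-high minus Vwf-low, with its standard error for 24 genes in 4 comparisons: both sisters ranked by their mean, the high-lysosome sister ranked by the low-lysosome sister, the reverse, and cells without a sequenced sister. The first 3 share cells or divisions. Clu lies above 0 in all 4, and Rnf220 lies below 0 in 3 and at 0.11 in the cells without a sequenced sister.

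Lysosome inheritance was compared between the groups by an interaction term. With edgeR 0 of 14516 genes (0.0%) differed in their high minus low lysosome difference between Vwf-high and Vwf-low divisions, with 533 at an unadjusted p under 0.05, and DESeq2 on the same sums called 2 (0.0138%), Zfp146 and Ifnar1, neither of them named by the rule.

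Genes were also ranked by how closely they followed Vwf over all divisions, centred on the experiment, among 11698 genes found in at least 20% of paired cells. Pearson r, given as a description of divisions that share cultures, plates and depth, had a median of 0.011 over genes and was highest for Clu at 0.67, followed by Tm4sf1 at 0.48, Nupr1 at 0.47, Evc2 at 0.44 and Rhoj at 0.43. Ehd3, Fads3, Epas1, Selp and Map1b followed between 0.40 and 0.39. At the other end stood Rnf220 at -0.49, Arhgap30 at -0.43, Rgs1 at -0.40, 2610307P16Rik at -0.40 and Clnk at -0.40. Evc2, known from hedgehog signalling at the cilium, had a count in 82.8% of Vwf-high and 46.1% of Vwf-low cells (1.61 ± 0.41 over divisions, adjusted p = 0.0357). The hypoxia factor gene Epas1 did not pass (1.06 ± 0.60 on sums, adjusted p = 0.583), and Rgs1, a brake on G protein signals, did not either (-0.82 ± 0.24, adjusted p = 0.301).

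Neighbours of Vwf on chromosome 6 were read from the annotation. Of 80 annotated genes within 1000000 bases on either side, 38 were tested on sums, 18 were positive with a median of -0.02, and 0 were called, with 6 at an unadjusted p under 0.05. Over divisions 2 of 27 passed, beside 0.564% of all genes: Cd9 and Tnfrsf1a, which lie 51983 and 184290 bases from Vwf. Tnfrsf1a did not pass with the cell cycle scores (adjusted p = 0.111).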

How the data were processed

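Single HSC daughter cells were sequenced by Smart-seq2, and the authors deposited raw counts per gene and cell for 2 sequencing runs (run 4 and run 5), made with SAMtools and featureCounts of Subread 1.5.0 per the submitters' processing notes. For the aligner and the build the sources used here give no name. Spike-in rows were left out of library sizes, and 171 count columns that match no listed sample were not used. All 55450 gene ids matched GENCODE M21 (GRCm38), from which names and coordinates come. The deposited tables of cell labels gave experiment, movie, position, colony and lysosome label, by which sisters were joined: 406 of 474 cells formed 203 divisions, of which 128, with 256 cells, are compared.

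Counts were summed per experiment and tercile and tested with edgeR 4.0.16 (TMM, quasi-likelihood test, filterByExpr, experiment as block, Benjamini-Hochberg adjustment at 0.05), leaving out Vwf. A companion fit took one sum per division, for genes with a count in at least 20% of paired cells. Log2 differences carry standard errors. Levels are the mean CPM over the divisions of an experiment, with a pseudocount of 1 on log scales. The sums share one culture per experiment, so same-experiment sums pair by the labels and the block is part of the design. DESeq2 1.42.0 and limma 3.58.1 were alternatives (R 4.3.3), and permutation tests used Python 3.11.15. On simulated data the fit on sums of 14750 genes recovered 59.7% of genes changed by 1 on the log2 scale. It recovered 73.1% of genes changed by 2, with 5 false calls. The fit over divisions of 11699 genes recovered 58.2% and 94.0%, with 10 false calls. The simulation drew each gene independently with groups set beforehand, whereas the divisions were ranked by a gene of the same cells. These values therefore do not give the error rate of the ranked comparison.

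Genes named are Vwf, up to 15 called genes a side on sums (filled by p to 5), up to 3 members of each of 26 lists by p, 12 fixed genes, and the 10 and 5 genes most and least like Vwf. Rnf220, Thsd4, Lin28b, Fgfr1, Dock1, Actn1, Ptk2b, Flna, Sfrp1, Map1b, Tnf, Il1r1, Irak3, Tnfrsf1a, Clnk, Sox4, Fads2, Fads3, Cd9, Itgb5 and Ehd3 were added after their values were seen. The members and all lists were chosen with earlier results of these data known. Nothing in the labels ties cells to mice, so p-values measure the spread between cultures or divisions.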

Additional observations from a re-analysis of the deposited data

Results flagged for a closer look

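Of 23 log2 differences examined over the 9 experiments, 6 held an experiment far from the others by Dixon's ratio (critical value 0.493), where chance flags about 1 in 20. Experiment 69, with 4 divisions per tercile, was that experiment for 5 genes. Its difference, Vwf-high minus Vwf-low, was 0.51 for Rnf220 where the median experiment was at -0.96. For Apoe it was 5.27 where the median was 1.46, and for Cdk6 it was -1.87 where the median was -0.54. For Dock1 it was 1.98 where the median was 0.73, and for Actn1 it was 1.69 where the median was 0.58. Experiment 60 stood apart for Rhoj, at -0.14 where the median was 1.28.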

How the results depend on the processing

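The share of genes called on sums, 0.0475%, kept its count of 7 with RLE size factors and with ties reversed, and the count was 10 with the 20% detection filter. The share was 2.17% with DESeq2, 0.128% with no low-count filter, 0.305% with limma, 0.564% with one sum per division, 1.47% with Vwf as a covariate, 0.949% over divisions with depth covariates and 0.564% with cell cycle covariates. It was 0.00633% (1 gene) for divisions above against below the middle rank and 0.0140% (2 genes) for narrower outer groups. In the sister that was not ranked it was 0.0148% and 0. It was 0 ranked within plate (1364 genes at an unadjusted p under 0.05), 0 in run 4 alone (1244) and 0 in run 5 alone (562). With no replicate block, that is, without the pairing by experiment, it was 0 (903). Leaving out each experiment gave 0 to 0.108%. Over divisions the share of 0.564% became 0.949% with depth covariates, 1.47% with Vwf as a covariate and 0.145% to 0.992% without each experiment, a check chosen after seeing the data. The causes were not tested. Of the interaction, edgeR called 0, also without each experiment, and DESeq2 called 0.0138% (2 genes). None of 594 values of 22 genes under these alternatives changed direction. Most of these genes were picked for their values in these data, and the alternatives reuse the same cells. A steady direction is therefore no independent support. The cells without a sequenced sister, a separate comparison, are not among these alternatives. There Rnf220 (0.11), Gm4258 (0.07), Tie1 (-0.12) and Ptk2b (-0.07) had the opposite sign. The Vwf difference between sisters was -10.2 as mean CPM, a scale chosen after seeing the data, and did not pass (exact permutation p = 0.105, n = 9). As medians over divisions, log2 total count, detected genes and mitochondrial percentage differed by -0.014, -47.9 and -0.0366, against positive means, and the G1/S and G2/M scores by -0.29 and -1.50, against means of -0.10 and -0.89. Depth limits genes found in few cells. For Gp1bb, whose exons overlap other genes on the same strand, the part of depth in its low count was not tested.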
